A study of Mus musculus with 15 samples.

Results

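Tubulins, kinesins and the subunits of cytoplasmic dynein and dynactin were followed in femoral RNA of mice that had or had not flown in space, with or without a bone defect. A gene was a member if the accession of at least 1 of its probes led to a symbol that starts with Tuba, Tubb, Tubg, Kif, Dync or Dctn and goes on with a number, or to a Kifc gene or Kifap3. Tubb1, Kif11 and Kif23 were left out. The rule found 71 genes with 95 probes, of 21154 genes named on the array, and each gene is described by its brightest probe in the sample channel. Of the 71 members, 2 are pseudogenes, Kif4-ps and Tubb2a-ps2.

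The mice were male C57BL/6J, given as 9-week old in the labels, and each array held the RNA of 1 mouse. Ground control mice with unoperated femora (G-Sham, n = 4) were set beside mice flown in space with unoperated femora (FLT-Sham, n = 4). Mice with segmental bone defect surgery of the femur were kept on the ground (G-Surgery, n = 4) or flown (FLT-Surgery, n = 3). The defect of both Surgery groups was filled with a polymer and tricalcium phosphate graft held on a hollow needle and wrapped in a collagen sponge with saline. The tissue was the femoral midshaft, which the labels call callus also in the Sham groups. The carcasses were frozen whole and partly thawed for dissection, and the femoral segments were ground and extracted as bulk tissue. On each 2-colour array Cy5 marked the RNA of the mouse, and Cy3 marked a reference RNA made from 11 mouse cell lines. All values below are log2 ratios of Cy5 to Cy3, so a measured 0 means as much signal as the reference RNA gave. An exact 0 can instead be a set value and no measurement, as on 13 arrays for Kif27 and on 13 for Kif2b.

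Microtubules are hollow fibres built from dimers of alpha and beta tubulin, each of which exists as several isotypes from separate genes, and gamma tubulin starts their growth at the centrosome. Kinesins are motors that walk along microtubules. Some carry vesicles, mitochondria and other cargo through the cell, and others build the mitotic spindle and divide the cell. Cytoplasmic dynein 1 carries cargo toward the cell centre with dynactin as its activating partner, while dynein 2 works inside cilia. In bone, microtubules serve the secretion of collagen by osteoblasts and the migration and polarity of osteoclasts, and in skeletal muscle they run along the fibre and position its organelles. In bulk tissue, fewer cells of a type and less RNA per cell cannot be told apart.

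Per array, 12510 to 21488 of 55681 probes were detected in the Cy5 channel, meaning well above background by the scanner software. Among the FLT-Sham arrays, replicate 8 had 14841 such probes and the other three had 19459 to 21488. The FLT-Surgery arrays had 12510 to 14284. The type I collagen genes Col1a1 and Col1a2 and the bone matrix genes Bglap2 and Spp1 were above background on all 15 arrays, whereas the osteoblast and osteocyte genes Sp7, Dmp1, Phex and Sost were above it on 0 arrays. Of 12 skeletal muscle genes 10 to 12 were above background on every array, and their summed Cy5 signal ran from 240056 to 2421430 in FLT-Surgery, from 665975 to 3102730 in G-Surgery, from 847358 to 4159680 in G-Sham and from 1313340 to 11981800 in FLT-Sham. A member counts as past the cut-off where its fold change was 2 or more and its limma p, before adjustment, 0.01 or less, the limits of the study's methods. After Benjamini-Hochberg adjustment over all probes no member reached 0.05 in any comparison with all arrays at equal weight. In the main fit, on the deposited ratios of the arrays compared, the lowest adjusted p of a member was 0.146 in limma. With all 15 arrays in one fit it was 0.0514, in FLT-Surgery vs FLT-Sham. That no member reached 0.05 depended on single arrays and on equal weights. Without FLT-Sham replicate 8, 15 of 42 members tested in FLT-Surgery vs FLT-Sham were below 0.05 after adjustment (35.7%, against 32.9% of all probes), 2 in FLT-Sham vs G-Sham (4.55% against 3.12%) and 7 in the interaction (15.2% against 14.2%). Without FLT-Surgery replicate 1, 4 were below it in FLT-Surgery vs G-Surgery (10.3% against 8.35%) and 1 in FLT-Surgery vs FLT-Sham (2.33% against 4.03%). With arrays weighted by their fit the counts were 7, 25 and 19 in FLT-Sham vs G-Sham, FLT-Surgery vs FLT-Sham and the interaction (15.9%, 58.1% and 41.3%, against 21.9%, 56.1% and 30.5% of all probes). At an unadjusted p of 0.05 or less there were 2 of 44 members in FLT-Sham vs G-Sham (9.62% of all probes), 5 of 39 in FLT-Surgery vs G-Surgery (16.4% of all probes), 7 of 39 in G-Surgery vs G-Sham (10.9% of all probes) and 10 of 43 in FLT-Surgery vs FLT-Sham (24.3% of all probes). Over all probes tested, the median log2 difference was 0.25 for FLT-Sham vs G-Sham, -0.20 for FLT-Surgery vs G-Surgery, 0.14 for G-Surgery vs G-Sham and -0.29 for FLT-Surgery vs FLT-Sham. With a further loess within each array these medians were -0.13, 0.30, -0.09 and 0.36, so differences are also given relative to the median of all probes. Over all probes 353 were higher and 41 lower past the cut-off in FLT-Sham vs G-Sham (160 and 86 with the further loess), 173 and 347 in FLT-Surgery vs G-Surgery (1164 and 61), 371 and 92 in G-Surgery vs G-Sham (235 and 182) and 81 and 1191 in FLT-Surgery vs FLT-Sham (624 and 571). Any 2 arrays of 1 group are separate mice, and the p-values measure the spread between mice at 1 array each.

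Of the 71 members, 22 were above background in Cy5 on all 15 arrays, 34 on some arrays and 15 on 0 arrays. Detection differed between the roles of the genes. The paper describes the RNA put on the arrays as of sub-optimal quality, and its part in what was detected was not tested. All 15 arrays showed 6 of 7 alpha tubulins, 4 of 7 beta tubulins and 5 of 6 dynactin subunits above background, against 1 of 11 mitotic kinesins and 2 of 18 transport kinesins. Of the 15 members not detected in Cy5, 10 were above background on all 15 arrays in the Cy3 channel. For these a log2 ratio is a bound and not a level, since the sample signal lay in the background.

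**Figure D1:**
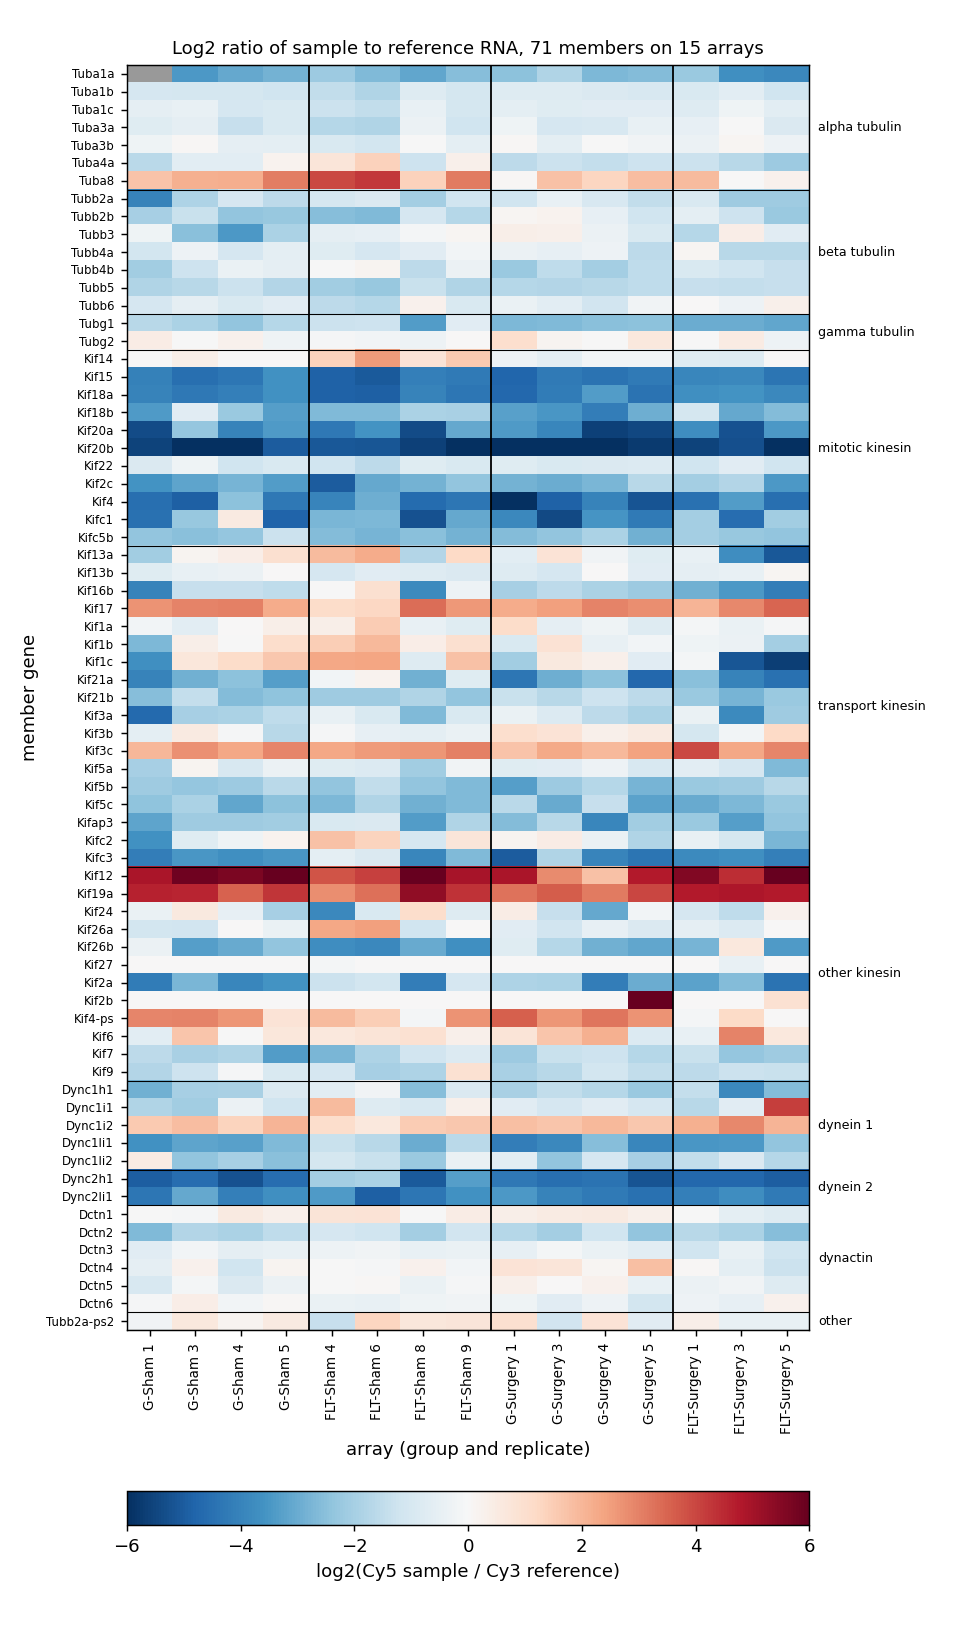
Log2 ratio of Cy5 sample to Cy3 reference (colour, limits at -6 and 6) for the 71 members (rows, grouped by role) on the 15 arrays (columns, grouped by condition), with the 1 missing value in grey. Most mitotic kinesins are blue on all arrays, Kif12, Kif19a, Kif17 and Kif3c are red on all arrays, and FLT-Sham replicates 4, 6 and 9 differ from replicate 8 for many transport kinesins.

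Most mitotic kinesins lay far below the reference RNA of cell lines. Kif15, which helps to hold spindle poles apart, was above background in Cy5 on 0 arrays and had log2 ratios between -5.04 and -3.64. Kif20b, which acts at the end of cell division, ranged from -6.45 to -4.98 and was also detected on 0 arrays. Kif4, a chromosome-bound motor, Kif2c, which takes microtubules apart at the centromere, and Kif18a, which dampens chromosome movement, were likewise above background on 0 arrays. Kif20a, needed for cytokinesis, was detected on 3 arrays of FLT-Sham, 1 of G-Sham and 0 of the Surgery groups. Kif22, which pushes chromosome arms outward, was the 1 mitotic kinesin detected on all arrays, with -0.81 ± 0.39 in G-Sham (SD, n = 4), -1.10 ± 0.37 in FLT-Sham (SD, n = 4), -0.83 ± 0.09 in G-Surgery (SD, n = 4) and -1.02 ± 0.30 in FLT-Surgery (SD, n = 3). The 4 groups of Kif22 overlapped. Among 10 genes of proliferating cells, 6 or 7 were above background on each array, with Mki67, Cdk1, Ccnb2, Ccna2, Plk1 and Birc5 on all 15 and Top2a, Bub1 and Aurkb on 0. No mitotic kinesin passed the cut-off in the main fit of any comparison. Only 3 of the 11 could be tested in FLT-Sham vs G-Sham, 2 in FLT-Surgery vs FLT-Sham and 1 in FLT-Surgery vs G-Surgery and in G-Surgery vs G-Sham, so a difference in the rest was not detectable on these arrays.

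Among the alpha tubulins, Tuba8 and Tuba4a varied most between groups. Tuba8, an isotype best known from muscle, heart and testis, had log2 ratios of 1.71, 2.13, 2.18 and 3.07 in G-Sham and of 3.98, 4.26, 1.38 and 3.1 in FLT-Sham replicates 4, 6, 8 and 9. In G-Surgery the values were 0.05, 1.74, 1.30 and 1.84, and in FLT-Surgery they were 1.91, 0.00 and 0.26. Tuba8 was thus highest in FLT-Sham replicates 4, 6 and 9, and the FLT-Surgery and FLT-Sham arrays overlapped only through FLT-Sham replicate 8. Tuba4a, an isotype abundant in muscle, brain and platelets, had 0.73, 1.40, -1.24 and 0.28 in FLT-Sham and -1.28, -1.66 and -2.18 in FLT-Surgery. All FLT-Surgery arrays were below all FLT-Sham arrays, although FLT-Surgery replicate 1 and FLT-Sham replicate 8 were close. In FLT-Surgery vs FLT-Sham the log2 difference was -2.45 for Tuba8 (SE 0.80, limma adjusted p = 0.157) and -2.0 for Tuba4a (SE 0.64, limma adjusted p = 0.156), and neither passed the cut-off. Without FLT-Sham replicate 8 the differences were -3.05 and -2.51 and both passed it. Tuba8 also passed in FLT-Sham vs G-Sham without that array, at 1.51. With no array left out, both genes passed in FLT-Surgery vs FLT-Sham in 3 settings. These were all 15 arrays in one fit, both channels detected on every array, and array weights. FLT-Sham replicate 8 had the lowest muscle signal of its group, at 1313340 in summed Cy5 against 6848960 to 11981800 in the other 3, and FLT-Surgery replicates 3 and 5 had 240056 and 306825 against 2421430 in replicate 1. The part of muscle RNA in these differences was not tested.

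Most other alpha tubulins had the opposite order over the FLT-Sham arrays. Tuba1b, a widely expressed isotype, was at -1.49, -1.79, -0.77 and -1.07 in FLT-Sham replicates 4, 6, 8 and 9, and between -1.21 and -0.65 on all other arrays. Tuba1c, Tuba3a and Tuba3b were also lowest in FLT-Sham replicates 4 and 6. These isotypes differ little in sequence, so their probes may share transcripts, and they are not 4 separate observations. Tuba1a, an isotype prominent in the nervous system, had no usable spot in G-Sham replicate 1 and lay at -3.45, -3.07 and -2.82 in the remaining G-Sham arrays. Its values were -2.18, -2.66, -3.14 and -2.55 in FLT-Sham, -2.44, -1.80, -2.67 and -2.60 in G-Surgery and -2.24, -3.70 and -3.87 in FLT-Surgery. FLT-Surgery replicate 1 was among the highest arrays and the other two FLT-Surgery arrays were the lowest. No alpha tubulin passed the cut-off in the main fit of any comparison.

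**Figure D2:**
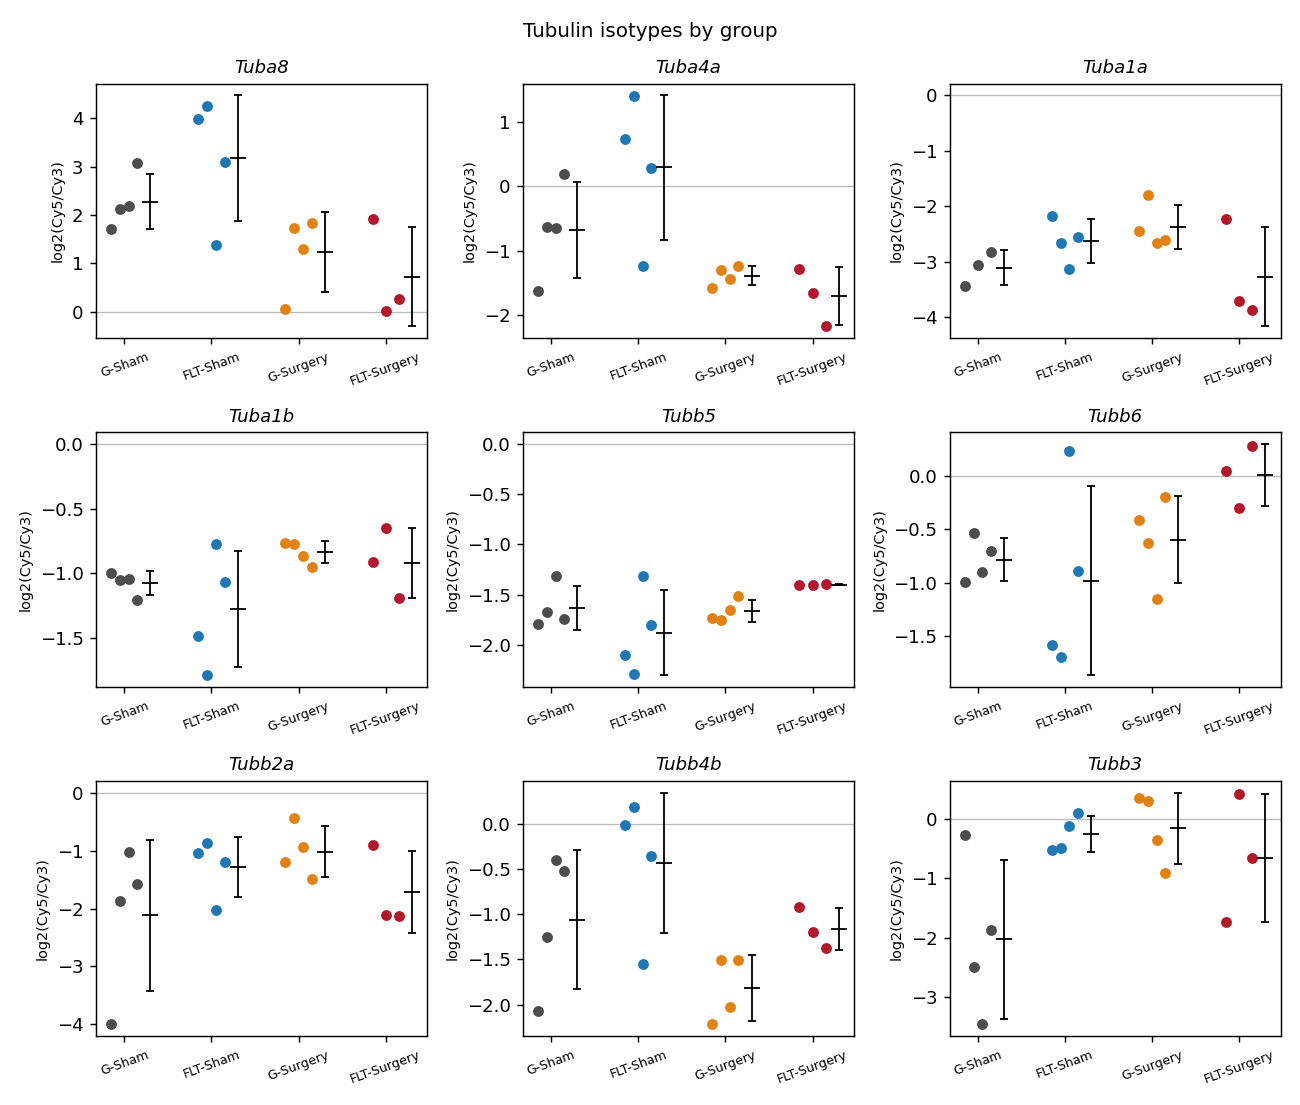
Log2 ratio (y axis) of 9 tubulin genes in the 4 groups (x axis). Points are arrays of single mice, and the bars give the mean ± SD of 4, 4, 4 and 3 arrays (3 in G-Sham for Tuba1a). The FLT-Sham points spread widely for Tuba8, Tuba4a and Tubb6, while the 3 FLT-Surgery points of Tubb5 lie between -1.41 and -1.39.

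Tubb2b was the 1 tubulin past the cut-off in the main fit. This isotype, best known from the developing nervous system, was at -2.0, -1.32, -2.37 and -2.26 in G-Sham and at 0.10, 0.20, -0.47 and -1.18 in G-Surgery. All G-Surgery arrays lay above all G-Sham arrays, with a log2 difference of 1.65 (SE 0.39, limma adjusted p = 0.262), or 1.51 above the median of all probes. It was the 1 member higher past the cut-off among 39 tested, 0 were lower, and over all probes 2.09% were called higher and 0.519% lower. The second Tubb2b probe differed by 1.02 in the same direction. Within slide 1 the difference was 0.81, with 3 G-Surgery arrays against 1, and within slide 2 it was 2.33, with 1 against 2. G-Sham replicate 4 was alone on slide 3 and entered neither value. With slide as a block it was 1.52, with a further loess 1.30 and with normexp background correction and loess 0.39, all outside the cut-off. In flown mice Tubb2b was at -2.57, -2.63, -1.02 and -1.71 in FLT-Sham and at -0.57, -1.26 and -2.24 in FLT-Surgery, and these groups overlapped.

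The remaining beta tubulins did not pass the cut-off in the main fit. Tubb5, the isotype most cells use, was below the reference on all arrays, between -2.29 and -1.31. Tubb6, which skeletal muscle makes during development and repair, was at -1.58, -1.70, 0.24 and -0.89 in FLT-Sham and at 0.04, -0.30 and 0.28 in FLT-Surgery. Here FLT-Sham replicate 8 stood with the FLT-Surgery arrays, and without it the log2 difference of 1.40 passed the cut-off. Tubb3, an isotype of neurons, was detected on 2 arrays of FLT-Sham, 2 of G-Surgery and 0 of the other groups. Of 8 neuronal genes, Snap25 and Syp were above background on all 15 arrays and Syt1, Rbfox3, Nefl, Nefm and Gap43 on 0. Tubg1, the gamma tubulin of most cells, was at -1.65, -1.89, -2.38 and -1.73 in G-Sham and at -2.69, -2.67, -2.50 and -2.44 in G-Surgery. These groups did not overlap, but the log2 difference of -0.67 (SE 0.25, limma adjusted p = 0.394) was under the fold of 2. Tubg1 was at -2.96, -2.98 and -3.12 in FLT-Surgery, and only FLT-Sham replicate 8, at -3.35, was lower.

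Transport kinesins held 3 of the 5 members past the cut-off in at least 1 comparison. Kif21a, a motor that slows microtubule growth at the cell cortex, was at -3.98, -2.90, -2.45 and -3.30 in G-Sham and at -0.17, 0.21, -2.89 and -0.73 in FLT-Sham. FLT-Sham replicates 4, 6 and 9 lay above all G-Sham arrays and replicate 8 lay among them. The Kif21a probe was well above background on those 3 FLT-Sham arrays and on no other array. Its Cy5 signal was at least 3.21-fold higher in FLT-Sham than in G-Sham (limma adjusted p = 0.49). Such a bound sets the normalized Cy5 mean of the brighter group against the detection level, or the dim signal where that is higher, and without swapped dyes it can carry a dye effect. The measured log2 ratios differed by 2.26 (SE 0.69), or 2.02 above the median of all probes, but the G-Sham values are background readings, so this is no exact size. Of 44 members tested in this comparison Kif21a was the 1 higher and 0 were lower, and over all probes 1.78% were called higher and 0.207% lower. The probe entered the test only through the group where it was high, so the count of 1 supports nothing further. Within slide 1 the difference was 2.74, with 1 array against 1, and within slide 2 it was 2.50, with 3 FLT-Sham arrays against 2. G-Sham replicate 4, alone on slide 3, entered neither value. With normexp background correction and loess it was 0.27, and with slide as a block 2.57, both outside the cut-off, and leaving out any 1 of the 4 G-Sham arrays also put it outside, with differences of 1.99 to 2.50. Without FLT-Sham replicate 4, 6 or 9 the probe was above background on too few arrays to be tested, and without replicate 8 the difference was 2.93. The same 3 arrays had the highest summed muscle signal, as given above for Tuba8, and the part of cell composition in the Kif21a difference was not tested. In G-Surgery and FLT-Surgery the values were between -4.72 and -2.48 and below background on all 7 arrays.

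**Figure D3:**
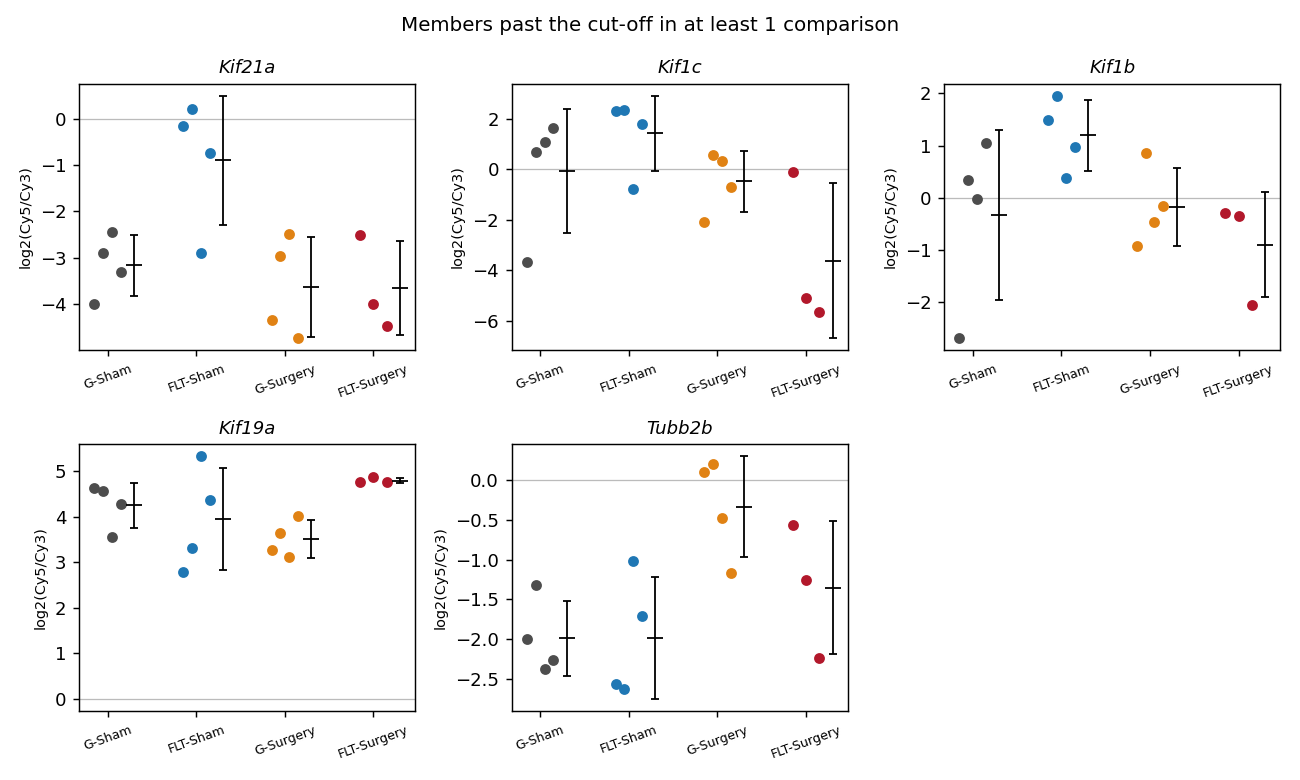
Log2 ratio (y axis) of the 5 members past the cut-off in at least 1 comparison, by group (x axis). Points are arrays of single mice and bars are the mean ± SD of 4, 4, 4 and 3 arrays. For Kif21a and Kif1c, 3 FLT-Sham arrays lie above all arrays of the FLT-Surgery group and replicate 8 lies apart from them, and the 3 FLT-Surgery points of Kif19a lie above all G-Surgery points.

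Kif1c and Kif1b were lower in FLT-Surgery than in FLT-Sham, and both belong to the family that carries vesicles toward the cell edge. Kif1c, which also moves integrins and adhesion proteins, was at 2.32, 2.36, -0.79 and 1.77 in FLT-Sham and at -0.11, -5.12 and -5.64 in FLT-Surgery. FLT-Surgery replicates 3 and 5 were the lowest of all arrays, while replicate 1 lay above FLT-Sham replicate 8, so the groups overlapped. The log2 difference was -5.04 (SE 1.41, limma adjusted p = 0.146), or -4.75 relative to all probes. The probe was above background on 1 of 3 FLT-Surgery arrays, so this is no exact size. The other Kif1c probes were above it on 0 FLT-Surgery arrays and give no size either. Within slide 1 the difference was -7.70, with 2 FLT-Surgery arrays against 1, and within slide 2 it was -1.22, with 1 against 3. At least 1 of the 2 FLT-Surgery readings on slide 1 lay in the background, so -7.70 is no exact size.

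Kif1b, a carrier of mitochondria and synaptic vesicle precursors, was at 1.5, 1.96, 0.38 and 0.97 in FLT-Sham and at -0.28, -0.35 and -2.05 in FLT-Surgery. All 3 FLT-Surgery arrays were below all 4 FLT-Sham arrays, with a log2 difference of -2.09 (SE 0.59, limma adjusted p = 0.146), or -1.81 relative to all probes. The second Kif1b probe was above background on 0 FLT-Surgery arrays and 3 FLT-Sham arrays and gives no size. The within-slide differences were -2.70, with 2 FLT-Surgery arrays against 1, and -1.38, with 1 against 3. A further loess left Kif1c past the cut-off at -3.88 and Kif1b outside it at -1.26, and with normexp background correction both were outside it, at -1.71 and -0.74. Kif1b was also outside it with all 15 arrays in one fit. These were the 2 members lower past the cut-off of 43 tested, 0 were higher, and over all probes 6.21% were called lower and 0.423% higher. With slide as a block neither passed, at -4.27 and -2.0, and without any 1 of FLT-Sham replicates 4, 6 and 9 or FLT-Surgery replicates 3 and 5 neither passed. Without FLT-Surgery replicate 1, 5 of 43 members were lower (11.6%, against 11.7% of all probes) and 0 higher. Without FLT-Sham replicate 8, 10 of 42 members were lower past the cut-off (23.8%, against 21.2% of all probes) and 1 was higher (2.38% against 5.05%), shares near those of the whole array. The 10 lower were Kif13a, Kif16b, Kif1b, Kif1c, Kif21a, Kif2a, Kifc2, Tuba4a, Tuba8 and Tubg1, and Tubb6 was higher. Of these, Kif16b, Kif21a and Kif2a were detected on 3 FLT-Sham arrays and on 0 FLT-Surgery arrays. They entered the test only through the group where they were high, so their part of the count supports nothing further. FLT-Surgery arrays held less erythroid and neutrophil signal than FLT-Sham arrays. Summed Cy5 was 2526 to 16879 against 22953 to 132079 for 7 erythroid genes and 15721 to 109794 against 148240 to 394141 for 8 neutrophil genes. The muscle values above overlapped through FLT-Surgery replicate 1 and FLT-Sham replicate 8. For 8 neuronal genes the group median went the other way, with 492179 in FLT-Surgery and 366878 in FLT-Sham, and the arrays overlapped. The part of these cells in the Kif1c and Kif1b differences was not tested. In ground mice Kif1c was at -3.68, 0.68, 1.09 and 1.62 in G-Sham and at -2.11, 0.57, 0.31 and -0.70 in G-Surgery, and the groups overlapped for both Kif1c and Kif1b.

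Kif13a, Kif16b and Kifc2 were also lowest in replicate 8 of the FLT-Sham arrays and were picked out after their values were seen. Kif13a, a carrier between endosomes and the cell surface, was at 1.90, 2.21, -1.76 and 1.19 in FLT-Sham and at -0.43, -3.74 and -5.08 in FLT-Surgery. Kif16b, a carrier of early endosomes, was at -0.03, 0.94, -3.84 and -0.30 in FLT-Sham and was not above background on any FLT-Surgery array. Its signal was at least 4.25-fold lower in FLT-Surgery (limma adjusted p = 0.187), but Kif16b entered this test only through the group where it was high. Kifc2, a minus-end motor of neurons and other cells, was at 1.74, 1.34, -0.99 and 0.71 in FLT-Sham and at -0.47, -1.03 and -2.73 in FLT-Surgery. For each of the 3 genes FLT-Sham replicate 8 lay with the FLT-Surgery arrays. Kif21a was at least 4.72-fold lower in FLT-Surgery than in FLT-Sham (limma adjusted p = 0.151), and here too it was tested only through the group where it was high. Without replicate 8 these 4 genes were among the 10 lower members named above. The FLT-Sham arrays enter both comparisons in which Kif21a is named, so these are not separate observations.

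The promoters of 5 members that were lowest in replicate 8 among the FLT-Sham arrays are shown because they are the sequences to read beside the pattern. RefSeq sequence of GRCm38.p6 was found for 54 of the 71 members, 250 bases up to the start of transcription, and the entries below are read 5′ to 3′ on the strand of the gene. Capitals mark GGGCGG, the core of the GC box that Sp-family factors bind, CCAAT, the box of factor NF-Y, and CACGTG, an E-box, each on either strand. Kif21a lies at chr15:91049952-91050201 on the minus strand, Kif1c at chr11:70700298-70700547 on the plus strand and Kif1b at chr4:149307734-149307983 on the minus strand. Tuba4a lies at chr1:75219295-75219544 on the minus strand and Tuba8 at chr6:121210484-121210733 on the plus strand.
Kif21a promoter: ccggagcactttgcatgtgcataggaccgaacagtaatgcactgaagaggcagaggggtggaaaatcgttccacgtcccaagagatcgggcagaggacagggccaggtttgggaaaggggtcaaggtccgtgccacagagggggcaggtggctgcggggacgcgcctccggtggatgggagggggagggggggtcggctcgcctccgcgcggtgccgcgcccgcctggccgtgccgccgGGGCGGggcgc
Kif1c promoter: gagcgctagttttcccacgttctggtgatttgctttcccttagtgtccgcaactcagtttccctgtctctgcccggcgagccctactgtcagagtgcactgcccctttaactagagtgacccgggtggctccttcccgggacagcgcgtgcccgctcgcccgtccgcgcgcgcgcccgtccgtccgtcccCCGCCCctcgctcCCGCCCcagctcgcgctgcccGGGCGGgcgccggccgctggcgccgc
Kif1b promoter: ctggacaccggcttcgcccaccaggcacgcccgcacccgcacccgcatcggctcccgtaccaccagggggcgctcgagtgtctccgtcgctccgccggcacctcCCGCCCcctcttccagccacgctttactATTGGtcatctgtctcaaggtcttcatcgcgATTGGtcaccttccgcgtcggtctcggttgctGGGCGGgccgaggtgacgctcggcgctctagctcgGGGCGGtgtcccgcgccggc
Tuba4a promoter: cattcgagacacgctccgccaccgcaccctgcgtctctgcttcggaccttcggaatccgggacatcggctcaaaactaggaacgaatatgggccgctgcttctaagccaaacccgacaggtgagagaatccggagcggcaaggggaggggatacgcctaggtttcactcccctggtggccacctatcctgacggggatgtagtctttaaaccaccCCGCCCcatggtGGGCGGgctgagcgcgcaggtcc
Tuba8 promoter: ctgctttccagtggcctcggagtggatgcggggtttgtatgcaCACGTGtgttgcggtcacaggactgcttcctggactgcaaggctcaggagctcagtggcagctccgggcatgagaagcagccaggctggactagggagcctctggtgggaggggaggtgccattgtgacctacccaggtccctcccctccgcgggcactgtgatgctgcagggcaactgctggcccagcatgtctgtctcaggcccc

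GGGCGG was found once in the Kif21a promoter, 3 times in Kif1c, 3 times in Kif1b and 2 times in Tuba4a, and not in that of Tuba8, which held 1 CACGTG. Kif1b also held 2 CCAAT boxes, both on the opposite strand. Of the 54 member promoters, 27 held GGGCGG (50% against 32.9% of 27025 promoters of the same length), 26 held CCAAT (48.1% against 34.5%) and 2 held CACGTG (3.7% against 6.05%). TTTGAA and TTCGAA, the letters of the cell cycle homology element found in many mitotic genes, were in 9 and 2 member promoters (16.7% against 16.3% and 3.7% against 1.34%). Of these 9, Kif14, Kif15, Kif2c and Kif22 are mitotic kinesins. None of the 5 motifs contains another. A match describes the letters in this window and is no evidence of binding. Promoters of Kif19a and Tubb2b were not in the table used.

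Heterotrimeric kinesin-2, which builds cilia and carries adhesion proteins, did not pass the cut-off with any of its genes in the main fit. Its motor subunit Kif3a was at -4.64, -1.97, -1.89 and -1.51 in G-Sham and at -0.46, -0.92, -2.63 and -0.92 in FLT-Sham. G-Sham replicate 1 and FLT-Sham replicate 8 were the lowest of their groups, and its adaptor Kifap3 had the same lowest arrays in these groups, at -3.15 and -3.36. Kif3c, a motor of neurons, stood above the reference on all arrays, between 1.71 and 3.96. Kif17, a motor of dendrites and cilia, was also above it on all arrays, between 1.11 and 3.49. Kif21b, a motor that pauses growing microtubules in neurons and lymphocytes, was at -1.32, -1.67, -1.22 and -1.58 in G-Surgery and at -2.24, -2.79 and -2.23 in FLT-Surgery, with no overlap. Its log2 difference of -0.97 (SE 0.27, limma adjusted p = 0.28) was under the fold of 2, 2 of 3 FLT-Surgery arrays were above background, and with normexp background correction and loess the direction turned, at 0.087. Kif5b, the conventional kinesin of most cells, was above background in Cy5 on 0 arrays while its Cy3 signal was above on all 15.

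Kif19a, a motor that keeps cilia short by taking apart their microtubules, was the 1 member past the cut-off in FLT-Surgery vs G-Surgery. It was at 3.26, 3.64, 3.11 and 4.02 in G-Surgery and at 4.76, 4.86 and 4.75 in FLT-Surgery. All FLT-Surgery arrays lay above all G-Surgery arrays, with a log2 difference of 1.29 (SE 0.30, limma adjusted p = 0.259), or 1.49 above the median of all probes. The difference was 1.34 within slide 1, with 2 FLT-Surgery arrays against 3, and 1.12 within slide 2, with 1 against 1. With slide as a block it was 1.28. Without FLT-Surgery replicate 3 it was 1.25 and just outside the cut-off, and with normexp background correction and loess it was 0.70 and outside. With all 15 arrays in one fit Kif19a was also outside it, and Dctn4, lower, was the 1 member called. Kif19a was the 1 member higher of 39 tested, 0 were lower, and over all probes 1.04% were called higher and 2.09% lower. Without FLT-Surgery replicate 1, 6 of 39 members were lower (15.4%, against 11.4% of all probes) and 1 was higher (2.56% against 1.29%). The 6 were Dctn1, Dctn4, Kif13a, Kif1c, Kif21b and Tuba1a. In the Sham groups Kif19a was at 4.63, 4.55, 3.54 and 4.27 without flight and at 2.79, 3.30, 5.32 and 4.36 with flight, which overlap.

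Kif12, a kinesin known from kidney and liver, had log2 ratios between 1.77 and 6.18 on the 15 arrays and was among the members farthest above the reference. It was at 4.90, 5.86, 5.65 and 6.00 in G-Sham and at 4.91, 2.83, 1.77 and 4.74 in G-Surgery. G-Surgery replicates 3 and 4 were the lowest of all arrays. The log2 difference of -2.04 (SE 0.70, limma adjusted p = 0.361) did not pass the cut-off, and it did so at -2.52 with a further loess. Kif2a, which takes apart microtubule ends, was above background on 3 FLT-Sham arrays and on 0 G-Sham arrays, with a signal at least 2.50-fold higher in FLT-Sham (limma adjusted p = 0.512). It was tested only through the group where it was high. Its second probe, detected on 1 FLT-Sham and 2 G-Sham arrays, differed in the opposite direction, by -1.91, so the direction for this gene is not settled. Kif2b was above background in Cy5 on 1 array, G-Surgery replicate 5, at 7.33. Its Cy3 signal was above background on 0 arrays, so this ratio gives no level. Of the 15 undetected members, Kif9, Kif26b and Kif27 are among the other kinesins, and Kif13b, Kif1a and Kif5c among the transport kinesins.

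For dynein 1, the intermediate chain Dync1i2, which links the motor to its cargo, was above the reference on all arrays. Its values were 1.57, 1.87, 1.35 and 2.03 in G-Sham, 1.04, 0.62, 1.52 and 1.60 in FLT-Sham, 1.78, 1.66, 1.93 and 1.62 in G-Surgery and 2.14, 2.88 and 2.03 in FLT-Surgery. FLT-Surgery arrays were above all arrays of the FLT-Sham and G-Surgery groups. The log2 difference to FLT-Sham was 1.16 (SE 0.41, limma adjusted p = 0.171) and outside the cut-off. The heavy chain Dync1h1, which holds the motor domain, was at -0.61, -0.21, -2.57 and -0.84 in FLT-Sham and at -1.41, -3.85 and -2.60 in FLT-Surgery, again with FLT-Sham replicate 8 among the FLT-Surgery arrays. Dync1li1, a light intermediate chain, was above background on 1 array. The dynein 2 heavy chain Dync2h1 was detected on 2 arrays, both FLT-Sham, and was highest in replicates 4 and 6 at -2.03 and -1.91, and Dync2li1 was detected on 0 arrays.

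Dynactin was the most evenly detected complex. Dctn1, the arm that grips dynein and the microtubule, was at 0.36, 0.48, 0.54 and 0.29 in G-Surgery and at -0.03, -0.57 and -0.79 in FLT-Surgery. These groups did not overlap, and the log2 difference was -0.88 (SE 0.28, limma adjusted p = 0.28), under the fold of 2. Dctn4, a subunit of the pointed end picked out after its values were seen, was at 0.81, 0.73, 0.12 and 1.81 in G-Surgery and at 0.05, -0.57 and -1.29 in FLT-Surgery. Its difference was -1.47 (SE 0.48, limma adjusted p = 0.28) and its second probe differed by -1.01. Dctn6, another pointed-end subunit, was at -0.05, 0.40, -0.14 and 0.07 in G-Sham and lay below these values on all FLT-Sham arrays, between -0.46 and -0.23. Dctn6 was also below G-Sham on all G-Surgery arrays, at -0.28, -0.67, -0.33 and -1.11, with a log2 difference of -0.67 (SE 0.27, limma adjusted p = 0.434). Dctn3, a small shoulder subunit, was between -1.19 and -0.10 on all arrays. Dctn2, which joins the shoulder to the filament, was between -2.66 and -1.03. No dynein or dynactin gene passed the cut-off in the main fit of any of the 4 comparisons.

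Whether the spaceflight difference itself differed between Surgery and Sham was tested over all 15 arrays. Of 46 members tested, 0 passed the cut-off, and 15 were below 0.05 before adjustment (32.6%, against 19.5% of all probes), with 0.191 as the lowest adjusted p in limma. This share depended on the processing. With a further loess 9 were below 0.05 (19.6% against 21.1%), and with the replicate number as a block 4 were (8.7% against 11%). With normexp and loess there were 12 (26.1% against 16.9%), and with slide as a block 11 (23.9% against 16.3%). Over all probes 0.358% were called higher and 4.97% lower, where lower means that the flight difference was more negative after Surgery. Of the 15 in the main fit, Kif12, Kif19a and Dync1i2 were on the higher side and 12 on the lower side. Among the lower were Kif1c at -4.63 (SE 1.96), Kif13a at -3.93 (SE 1.52), Dctn4 at -1.80 (SE 0.62) and Dctn1 at -1.20 (SE 0.42). Kif1c and Kif13a were each above background on 1 FLT-Surgery array, so their sizes are not exact. Without FLT-Sham replicate 8, 7 members were lower past the cut-off (15.2%, against 13.7% of all probes) and 2 higher (4.35% against 3.79%), and without FLT-Surgery replicate 1, 5 were lower (10.9% against 9.98%). Over the members the median was -0.68 and over all probes tested it was -0.37. A further loess moved these medians to 0.21 and 0.50. That loess moved the calls over all probes from 78 higher and 1084 lower to 679 and 229.

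**Figure D4:**
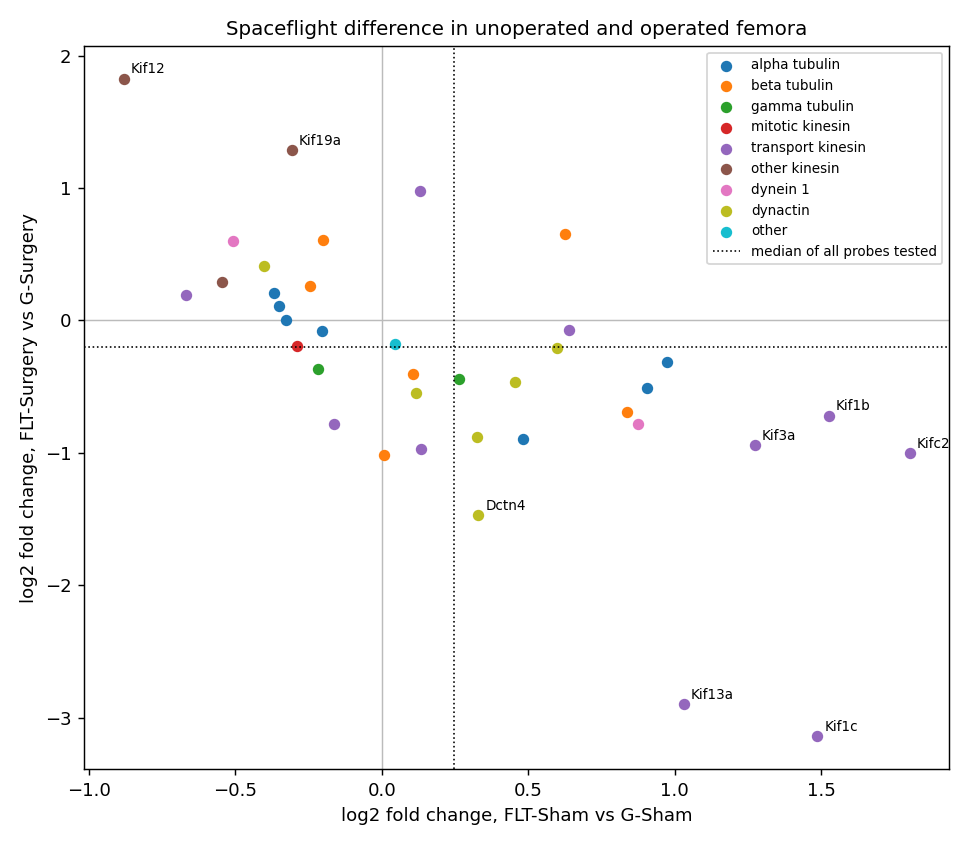
Log2 fold change of the 38 members tested in both spaceflight comparisons, with FLT-Sham vs G-Sham on the x axis and FLT-Surgery vs G-Surgery on the y axis. Points are genes coloured by role and dotted lines are the medians of all probes tested. Kif1c, Kif13a, Kifc2, Kif1b and Kif3a lie at the lower right, and Kif12 and Kif19a at the upper left.

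The pair of spaceflight comparisons shares no array. Of the 38 members tested in both, 21 had a positive difference in Sham and a negative one in Surgery (55.3%, against 41.1% of 15762 probes), and 11 the opposite (28.9% against 24.3%). In 2 members both differences were positive and in 4 both were negative. The median difference over the members tested was 0.13 in Sham, with 27 of 44 positive, and -0.37 in Surgery, with 13 of 39 positive. With a further loess both signs turned, to -0.16 in Sham, with 19 of 44 positive, and 0.14 in Surgery, with 22 of 39 positive, as did the medians of all probes given above.

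Other genes of the same machinery were counted from a list of kinesin and dynein light chains, dynein regulators, the gamma tubulin complex, tubulin folding and modifying factors and microtubule-binding proteins. Of 70 listed genes 67 were on the array. Counts are read against the shares of all probes given above for each comparison. In FLT-Sham vs G-Sham 1 of 47 tested was higher (1.78% of all probes) and 0 lower, namely Klc1, the light chain that joins conventional kinesin to its cargo, which was detected on 3 FLT-Sham arrays and on no other array and so was tested only through the group where it was high. In FLT-Surgery vs G-Surgery 2 of 41 were higher, Capza1 and Vash1 (1.04% of all probes), and 0 lower (2.09%), and in G-Surgery vs G-Sham 0 of 43 were called. In FLT-Surgery vs FLT-Sham 2 of 46 were higher, Ttll5 and Vash1 (0.423% of all probes), and 2 lower, the dynein adaptor Bicd2 and the microtubule-severing gene Katna1 (6.21%). Bicd2 and Katna1 were detected on 4 and 3 FLT-Sham arrays and on 0 FLT-Surgery arrays, so both entered the test through the higher group. Vash1, which encodes an enzyme that removes the last tyrosine of alpha tubulin, differed by 1.30 between FLT-Surgery and G-Surgery (SE 0.26, limma adjusted p = 0.215) and by 1.45 between FLT-Surgery and FLT-Sham (SE 0.39, limma adjusted p = 0.144), and these comparisons share the FLT-Surgery arrays. In the interaction 1 of 48 was higher, Vash1 (0.358% of all probes), and 2 were lower, Hook3 and Tubgcp4 (4.97%).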

How the data were processed

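RNA of 15 femora was labelled with Cy5 and hybridised beside a Cy3 reference on Agilent arrays with no dye swap. The authors deposited Feature Extraction output (12.0 per the submitters' processing notes), with a processed intensity per spot and channel, background-subtracted and dye-normalized by a linear and an intensity-dependent step, and the log10 ratio of Cy5 to Cy3. That deposited log10 ratio was converted to log2. Spots marked as outliers were dropped and a probe's spots averaged. Probes detected in Cy5 on 3 or more arrays of a comparison entered limma 3.58.1 (R 4.3.3), with the arrays of the 2 groups compared, or all 15 for the interaction. The cut-off was that of the study's methods, a fold change of 2 and an unadjusted p of 0.01, and Benjamini-Hochberg values over all probes tested stand beside it. Probes were named through their accession, and 28026 of 55681 had a symbol. The deposited series table held the same ratios to within 0.0166 on the log2 scale.

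Named genes were 32 members covering each role, and members past the cut-off with the largest differences, at most 8 a direction. The members and lists were chosen with earlier results of these data known. The marker lists were for bone, skeletal muscle, neutrophils, erythroid cells, proliferating cells, neurons and megakaryocytes. Summed Cy5 ran from 15721 to 394141 for neutrophils, from 1664 to 132079 for erythroid cells and from 2610 to 7421 for megakaryocytes, with the highest group median in FLT-Sham for each. For bone it ran from 176531 to 564882 and for neurons from 140207 to 677620. Alternatives were a further loess, median centring, normexp with an offset of 50 (on median signals, since mean signals were not in the columns used), 2 other filters, all 15 arrays in the fit, slide as a block, array weights, the mean over probes, the series table, the replicate number as a block and each array left out. On simulated data, of 200 probes changed by 2 log2 units 63.5%, 70.5%, 79% and 59.5% were called in FLT-Sham vs G-Sham (19777 probes), FLT-Surgery vs G-Surgery (16581), G-Surgery vs G-Sham (17715) and FLT-Surgery vs FLT-Sham (19165), beside 211, 174, 152 and 173 unchanged probes. The number of arrays limits the precision.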

Additional observations from a re-analysis of the deposited data

Results flagged for a closer look

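A single array stood far from the other 3 of its group for 7 of 107 combinations of a named member and a group of 4 arrays, where chance alone marks about 1 in 20, or 5.35. In FLT-Sham replicate 8 this held for Dctn2 at -2.06 (the others between -1.19 and -1.03), Kif2a at -4.13 (the others between -1.28 and -1.01) and Kifc1 at -5.22 (the others between -3.06 and -2.69). In G-Sham replicate 1 it held for Kif16b at -4.02 (the others between -1.54 and -1.39, all 4 below background), Kif3a at -4.64 (the others between -1.97 and -1.51) and Kifap3 at -3.15 (the others between -2.13 and -2.07). In G-Sham replicate 3 it held for Kif21b at -1.43 (the others between -2.61 and -2.41). The FLT-Surgery group has 3 arrays and was not examined in this way.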

How the results depend on the processing

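Members past the cut-off numbered 1 in FLT-Sham vs G-Sham, 1 in FLT-Surgery vs G-Surgery, 1 in G-Surgery vs G-Sham, 2 in FLT-Surgery vs FLT-Sham and 0 in the interaction. In FLT-Sham vs G-Sham the count was 0 with median centring, normexp, both channels detected on every array and slide as a block. It was 7 with array weights. Over all probes median centring called 1.8% higher and 0.303% lower, and normexp 0.0506% and 0.116%. Both channels detected called 0.347% and 0.269%, and slide as a block 1.09% and 0.0556%. In FLT-Surgery vs G-Surgery it was 3 with a further loess, without a filter and with slide as a block, and 0 with normexp. It was 2 with both channels detected and with the mean over probes, and 5 with array weights. Over all probes loess called 7.02% higher and 0.368% lower, no filter 0.46% and 0.819%, and slide as a block 1.26% and 6.56%. Normexp called 1.06% and 0.217%, both channels detected 2.38% and 1.99%, and the mean over probes 1.04% and 2.1%. In G-Surgery vs G-Sham it was 0 with both channels detected (2.19% higher and 0.691% lower over all probes) and with slide as a block (0.96% and 0.231%). In FLT-Surgery vs FLT-Sham it was 1 with loess, with normexp and without a filter, and 3 with both channels detected. It was 6 with all 15 arrays in one fit, 0 with slide as a block and the mean over probes, and 18 with array weights. Over all probes loess called 3.26% higher and 2.98% lower, normexp 0.517% and 1.02%, and no filter 0.535% and 1.77%. Both channels detected called 1.84% and 4.54%, and all 15 arrays 1.75% and 11.8%. Slide as a block called 0.318% and 2.55%, and the mean over probes 0.423% and 6.2%. In the interaction it was 2 with loess, without a filter and with both channels detected. It was 1 with median centring, normexp and the mean over probes, and 17 with array weights. Over all probes loess called 3.11% higher and 1.05% lower, no filter 0.634% and 2.28%, and both channels detected 1.56% and 5.52%. Median centring called 1.04% and 3.89%, normexp 0.798% and 0.678%, and the mean over probes 0.358% and 4.97%. With array weights the calls over all probes also grew, to 15.5% higher and 4.18% lower in FLT-Sham vs G-Sham, 1.4% and 8.91% in FLT-Surgery vs G-Surgery, 12.1% and 32.4% in FLT-Surgery vs FLT-Sham and 5.38% and 20.9% in the interaction. When single arrays were left out the counts ranged from 0 to 3, from 0 to 7, from 1 to 3, from 0 to 11 and from 0 to 9. Counts do not name genes: with all 15 arrays Dctn4 replaced Kif19a, and all 5 calls were lost with normexp and loess (Kif21a 0.27, Kif19a 0.70, Tubb2b 0.39, Kif1c -1.71 and Kif1b -0.74), where Kif12 was called in G-Surgery vs G-Sham and Dync1i2 in FLT-Surgery vs FLT-Sham. Without a filter Kif14, detected on no array in Cy5 or Cy3, was the call in both comparisons with FLT-Sham and Kif21a, Kif1c and Kif1b were not.

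Direction turned in 4 cases: Kif2a in FLT-Sham vs G-Sham was -0.091 as the mean over probes, and with normexp Kif21b was 0.087 in FLT-Surgery vs G-Surgery and 0.53 in the interaction, and Kif2a 0.031 in the interaction. The cause was not tested. Replicate numbers do not pair the mice (correlations of deviations from -0.40 to 0.35). With the replicate block the count was 0 in FLT-Surgery vs G-Surgery, 1 in G-Surgery vs G-Sham and 1 in the interaction. Of the other single-gene values under these settings, 310 kept direction and side of the cut-off, 46 passed it newly and 20 no longer passed it. Signal over background limits what can be said of the 15 members not detected in Cy5.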
